A study of Homo sapiens with 6 samples.

Results

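The replicative DNA polymerases and the primase are the enzymes that copy the genome, and aphidicolin (APH) is an inhibitor of these polymerases. The 10 genes examined here were POLA1, POLA2, PRIM1 and PRIM2 of the polymerase α-primase complex, POLD1, POLD2 and POLD3 of polymerase δ, and POLE, POLE2 and POLE3 of polymerase ε. They were chosen by name, out of 19671 protein-coding genes with a known strand, as the targets of the drug and their subunits. Chromatin accessibility was measured by ATAC-seq, the sequencing of transposase-accessible chromatin, in which a transposase inserts sequencing adapters into open DNA, in RKO cells, an established human colon cancer line. A group of 3 samples was treated with APH at 0.2 µM for 16 h to produce low replication stress, and 3 control samples received DMSO. The labels state the dose and time for APH, and all samples were of the same line with no further treatment named.

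A peak was assigned to a gene when its midpoint lay in the RefSeq gene record or within 1 kb of it. Peaks with a midpoint within 1 kb of the gene start were called start peaks, and the others body peaks. The value of a peak is its signal, the mean of an unscaled coverage map over the peak, and a start value is the mean over the start peaks weighted by their length. Sequencing depth is unknown for these lists, and counting error can therefore not be stated. The lists held 64511 to 77194 peaks in DMSO and 70121 to 84510 in APH, and the mean value over all peaks was 78.3 to 85.2 in DMSO and 69.4 to 73.0 in APH, without overlap. The median width of a peak was 338 to 367 bp in DMSO and 335 to 348 bp in APH. Of 8 marker genes of the colon epithelium, 2 had a start peak in every sample (EPCAM and CDX2) and 4 had none in any sample (CDH1, KRT8, VIL1 and CDX1). None of the 3 blood markers had a start peak, whereas the fibroblast marker COL1A1 had one in all 6 samples, with values of 56.7 to 76.5, and THY1 had none. The part of any other cell type in the results was not tested.

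At each replication fork, primase lays down a short RNA primer, which polymerase α extends with a stretch of DNA. Polymerase δ then takes over on the lagging strand, and polymerase ε carries out most of the synthesis on the leading strand. POLA1, POLD1 and POLE are the catalytic subunits of the 3 polymerases, PRIM1 is the catalytic subunit of the primase, and the remaining genes encode accessory subunits. Aphidicolin competes with nucleotides at the active site of these polymerases and slows the fork. Promoters of replication genes are known to be controlled in the cell cycle through E2F transcription factors.

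The promoters of the 3 catalytic polymerase subunits are shown because the start peaks of these genes, on which the comparison turns, covered every base of them in all 6 samples. They are RefSeq sequences of GRCh38.p14, from 250 bases before to 50 bases after the gene start, read 5′ to 3′ along the gene: chrX:24693668-24693967 on the plus strand for POLA1, chr19:50384073-50384372 on the plus strand for POLD1 and chr12:132687293-132687592 on the minus strand for POLE. Capitals mark the motif matches described below.
POLA1: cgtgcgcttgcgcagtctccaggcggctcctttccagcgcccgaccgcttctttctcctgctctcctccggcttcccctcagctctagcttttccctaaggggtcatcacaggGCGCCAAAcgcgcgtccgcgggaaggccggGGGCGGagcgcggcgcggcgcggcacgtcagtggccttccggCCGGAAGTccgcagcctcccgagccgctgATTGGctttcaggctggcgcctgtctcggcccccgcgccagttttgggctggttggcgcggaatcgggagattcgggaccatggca
POLD1: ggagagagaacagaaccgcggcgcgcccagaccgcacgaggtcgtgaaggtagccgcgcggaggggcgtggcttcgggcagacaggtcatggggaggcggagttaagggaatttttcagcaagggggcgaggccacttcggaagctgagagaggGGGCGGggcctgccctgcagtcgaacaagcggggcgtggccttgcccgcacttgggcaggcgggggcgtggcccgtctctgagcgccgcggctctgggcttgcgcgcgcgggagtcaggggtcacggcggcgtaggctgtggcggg
POLE: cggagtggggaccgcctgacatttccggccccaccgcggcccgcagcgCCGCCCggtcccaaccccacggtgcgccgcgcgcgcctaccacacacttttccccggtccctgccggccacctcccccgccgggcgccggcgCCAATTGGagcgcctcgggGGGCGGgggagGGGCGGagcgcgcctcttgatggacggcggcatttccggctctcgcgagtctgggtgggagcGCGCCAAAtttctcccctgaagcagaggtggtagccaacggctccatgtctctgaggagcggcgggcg
The promoter table held 9 of the 10 genes, all but POLD3, and motifs were searched on both strands of the window at the most upstream start listed for each. An E2F motif (TTTCCCGC, TTTGGCGC, TTTCGCGC or TTTGCCGC) was present in 4 of 9 windows, those of POLA1, POLA2, POLE and POLE2, against 4.44% of the 15841 protein-coding promoters of the table. In the sequences above it is the run GCGCCAAA, the reverse strand of TTTGGCGC, in POLA1 and POLE. In POLA2 it overlapped an NRF1 motif (GCATGCGC), present in 1 of 9 windows and in 4.28% of all promoters. A CCAAT box (CCAAT) was found in 4 windows (POLA1, PRIM1, POLD2 and POLE) and in 36.4% of all promoters, and a GC box (GGGCGG) in 6 windows and in 58.3%. An ETS motif (CCGGAAGT) was present in POLA1 alone, against 6.15% of all promoters. Matches to 4 further motifs were in none of these 9 windows, although another listed start of POLE3, whose window lay fully under peaks in all samples, held an E-box and a CHR element. They were the E-box (CACGTG), present in 8.83% of all promoters, and the YY1 motif (AAGATGGCG), present in 2.69%. The cell cycle element CHR, searched as TTTGAA and as its variant TTCGAA, was present in 13.6% of promoters elsewhere. For the TATA box (TATAAA) that share was 9.75%. The median GC content of the 9 windows was 69.0%, against 62.7% for all promoters, and the median ratio of observed to expected CpG was 0.975 against 0.761. These matches are descriptions of the letters and were not tested.

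PRIM2, the large accessory subunit of the primase, was the one gene of the 9 whose most upstream promoter window was covered by no peak. Its 2 listed starts are shown because only the downstream one lay under a peak, at chr6:57317380-57317679 on the plus strand, where 234 to 293 of the 300 bases were covered in each sample. The upstream window, chr6:57314555-57314854 on the same strand, was covered in none.
PRIM2 upstream start: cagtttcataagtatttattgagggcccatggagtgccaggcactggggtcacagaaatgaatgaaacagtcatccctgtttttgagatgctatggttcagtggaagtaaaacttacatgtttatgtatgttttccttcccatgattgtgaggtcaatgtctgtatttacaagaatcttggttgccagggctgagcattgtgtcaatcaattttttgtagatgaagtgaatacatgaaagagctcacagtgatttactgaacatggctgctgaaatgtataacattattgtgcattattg
PRIM2 downstream start: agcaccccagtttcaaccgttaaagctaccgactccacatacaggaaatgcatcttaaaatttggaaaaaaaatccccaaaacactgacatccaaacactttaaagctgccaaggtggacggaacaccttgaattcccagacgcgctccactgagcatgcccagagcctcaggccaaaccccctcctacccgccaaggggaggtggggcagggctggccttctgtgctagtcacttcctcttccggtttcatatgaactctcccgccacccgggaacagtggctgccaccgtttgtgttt
The upstream window had a GC content of 38.3% with no CpG, and the downstream window one of 53.0%. No searched motif was in either. The start peak of PRIM2 used below lay 820 bp upstream of its first listed start. The RefSeq record of PRIM2 also runs far upstream of both listed starts, and its outermost end shares a region with the start of RAB23, at -92.9 kb from the first listed start. Parts of PRIM2 have near-identical copies elsewhere in the genome, so peaks in its body are uncertain.

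The 10 genes held 40 regions of merged peaks, of 102784 in the whole series. Of these, 11 were start regions, 3 lay at another listed start and 26 in the body. A peak was present in all 6 samples in 21 regions, which were 10 start regions, 2 at the other start of PRIM2 and 9 body regions. The other 19 regions were present in some samples only and their peaks had values from 17.7 to 71.5, where the median over all peaks of a sample was 47.0 to 53.8. Every gene had a start region open in all samples. The number of start peaks was 11 in each DMSO sample and 11, 12 and 11 in APH, and the number of body peaks was 12, 21 and 15 in DMSO and 21, 22 and 14 in APH. Together the peaks of the 10 genes made up 0.0389% ± 0.00349 of a DMSO list and 0.0387% ± 0.00261 of an APH list (SD, n = 3), and both groups overlapped.

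**Figure D1:**
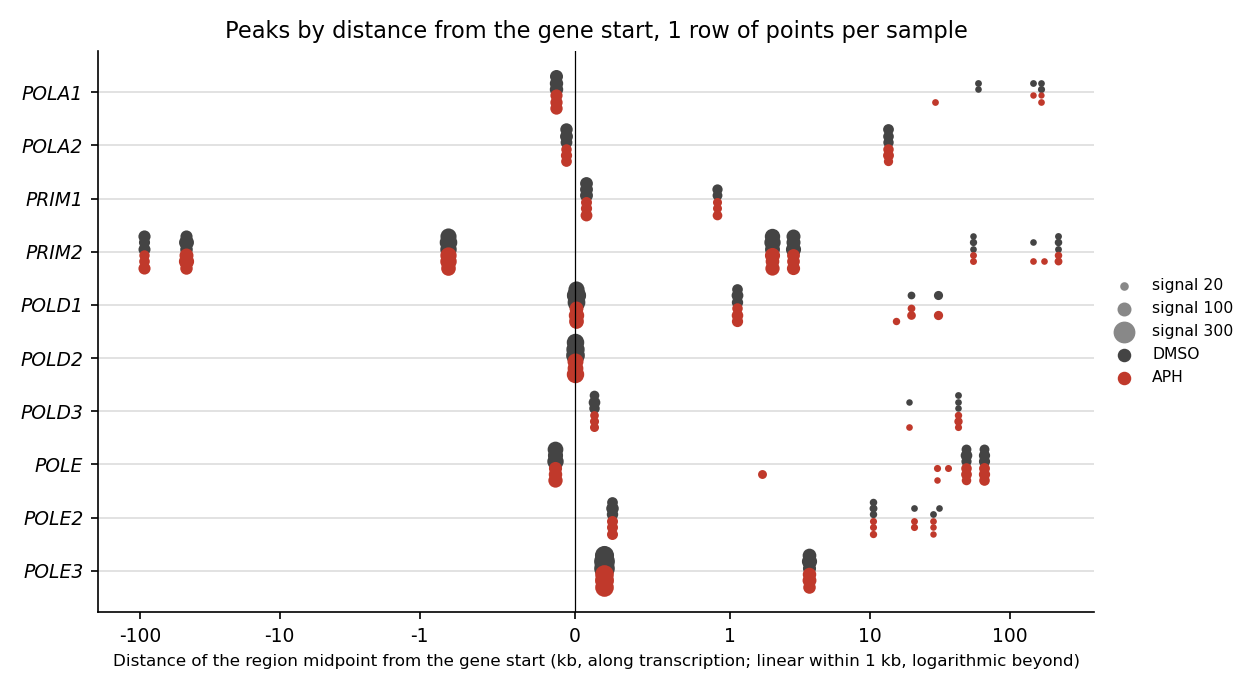
Peaks of the 10 genes by the distance of their region from the gene start (kb along transcription, linear within 1 kb and logarithmic beyond), with 1 point per sample (3 DMSO in gray, 3 APH in red) and an area that grows with the peak's signal. Each gene had a region within 1 kb of its start in all 6 samples, that of PRIM2 lying upstream of the start, while beyond 10 kb many regions were weak and present in some samples only.

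The genes differed widely in the level of their starts. In DMSO the order from the highest mean start value was POLE3, POLD2, POLD1, PRIM2, POLE, POLA1, PRIM1, POLA2, POLE2 and POLD3. Among neighbours in this order, the samples did not overlap between POLE3 and POLD2, between POLE and POLA1 and between POLA1 and PRIM1, and the other neighbours overlapped. Over all 6 samples, the level of POLE3 was at the 91.2 percentile of the 10972 protein-coding gene starts with a peak in every sample, that of POLD2 at the 80.9, that of POLA1 at the 36.9 and that of POLD3 at the 9.06 percentile. Within polymerase δ the start of POLD2 was thus among the stronger of these always open starts and that of POLD3 among the weaker.

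**Figure D2:**
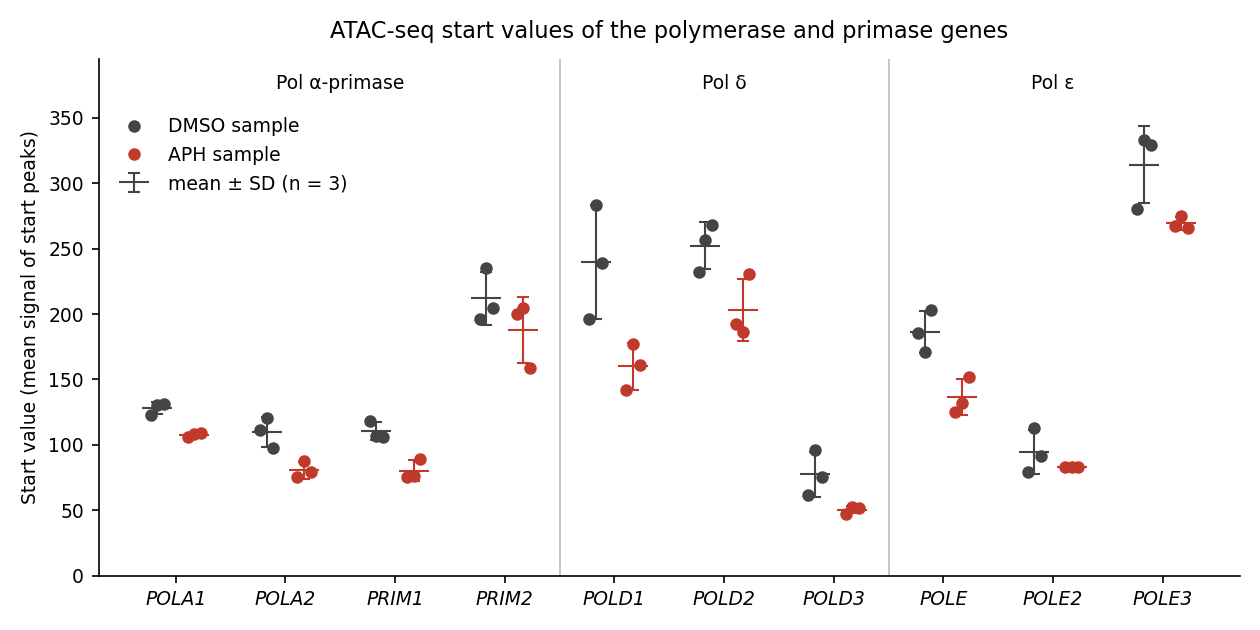
Start values (mean signal of the start peaks) of the 10 genes in each DMSO (gray) and APH (red) sample, with the mean and SD of each group (n = 3). The APH samples lie below all DMSO samples in 8 genes, and the groups overlap in PRIM2 and POLE2.

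To compare the conditions, all gene starts were fitted together on the log2(value + 1) scale with limma, with Benjamini-Hochberg adjusted p-values over the 10972 starts. The mean start value was lower in APH in all 10 genes, and in 8 of them the APH samples lay below every DMSO sample. Values of gene starts were lower in APH throughout the genome, and 42% of all gene starts had APH samples below every DMSO sample. None of the 10 genes passed an adjusted p of 0.05 in limma, while 6 had an unadjusted p under 0.05, as lower in APH, which 40.2% of all gene starts had too. Of all gene starts, 2.33% passed the adjusted threshold as lower in APH, which were 256, and none as higher, where 52 had an unadjusted p under 0.05. This count rested on single samples: without the third APH sample 18.3% of gene starts (2012) passed as lower, PRIM1, POLD1, POLD2, POLD3 and POLE among them, and without any one of the other samples at most 1 gene start passed. The samples were not paired in this fit. With equally numbered samples taken as a replicate block, 7 of the 10 genes passed as lower, as did 5791 of all 10972 gene starts. The labels do not tie equal numbers to one experiment. With 3 samples against 3, the two-sided exact permutation test on one gene cannot go below p = 0.1, and it gave 0.1 for the 8 genes without overlap and 0.4 for PRIM2 and POLE2.

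In the polymerase α-primase complex, the start value of POLA1 was 123, 130 and 131 in DMSO and 106, 108 and 109 in APH. All APH samples were lower, with a narrow spread in each group, and the log2 change was -0.25 ± 0.11 (SE; limma, adjusted p = 0.123). POLA2, the regulatory B subunit, had values of 111, 120 and 98.0 in DMSO and 75.1, 87.6 and 79.2 in APH. Its mean was 26.6% lower in APH, again without overlap, with a log2 change of -0.44 ± 0.14 (limma, adjusted p = 0.0604). For PRIM1 the values were 119, 107 and 106 in DMSO and 75.5, 76.1 and 89.3 in APH, a log2 change of -0.46 ± 0.13 (limma, adjusted p = 0.0548). PRIM1 had a second, weaker start peak 913 bp into the gene that was missing in the first DMSO sample, and the peak at the start taken alone, with 119, 120 and 120 in DMSO and 83.0, 86.9 and 99.2 in APH, was likewise lower in every APH sample.

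The start of PRIM2 was the exception in this complex. Its values of 196, 235 and 204 in DMSO and 200.4, 204 and 159 in APH overlapped, and the log2 change was -0.18 ± 0.13 (limma, adjusted p = 0.285). It was -0.062 without APH sample 3, -0.10 without DMSO sample 2 and -0.24 without APH sample 2. With median peak width as a covariate it was -0.35 (limma, adjusted p = 0.045), and under each of the 3 rescalings given below it was above 0. The peak over its downstream start, whose window is printed above, had values of 144, 145 and 171 in DMSO and 119, 117 and 127 in APH. There the APH samples were all lower than the DMSO samples, with a log2 change of -0.34 ± 0.14 in the fit of shared regions (limma, adjusted p = 0.345). A region between both starts had values of 177, 200.2 and 166 in DMSO and 170, 137 and 151 in APH, which overlapped.

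The start values of polymerase δ had the lowest median log2 change of the 3 complexes, -0.57 in its 3 genes, against -0.34 in the 4 genes of polymerase α-primase and -0.22 in the 3 genes of polymerase ε. These medians leave out the smallest subunits of polymerases δ and ε, POLD4 and POLE4, whose log2 changes were -0.11 and -0.39 (given below). The difference between complexes was not tested. The value of POLD1, the catalytic subunit, was 196, 284 and 239 in DMSO and 142, 177 and 161 in APH. Every APH sample lay below the lowest DMSO sample, and the mean was 33.2% lower (log2 change -0.57 ± 0.14; limma, adjusted p = 0.0530). POLD2, which joins the catalytic subunit to the others, had values of 232, 257 and 268 in DMSO and 192, 186 and 231 in APH (log2 change -0.32 ± 0.12; limma, adjusted p = 0.0838). The highest APH sample of POLD2 came close to the lowest DMSO sample.

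POLD3, an accessory subunit of polymerase δ that also takes part in break-induced replication, had the weakest start of the 10 genes. Its values were 61.6, 95.9 and 75.2 in DMSO and 47.4, 52.5 and 51.7 in APH. The mean was 34.8% lower in APH, the log2 change was -0.59 ± 0.18 (limma, adjusted p = 0.0576) and the APH samples lay close together below all DMSO samples. The change of POLD3 was at the 1.64 percentile of all gene starts and that of POLD1 at the 2.12 percentile, counted from the most negative.

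In polymerase ε, the start value of POLE was 185, 171 and 203 in DMSO and 125, 132 and 152 in APH. All APH samples were lower, and the log2 change was -0.45 ± 0.12 (limma, adjusted p = 0.0531). This peak also lay within 1 kb of the start of PXMP2, so the value cannot be given to one of the genes. POLE2, the second subunit of the complex, had values of 79.2, 113 and 91.3 in DMSO and 83.3, 83.4 and 83.4 in APH. The APH samples were nearly equal and lay inside the range of the DMSO samples (log2 change -0.16 ± 0.15; limma, adjusted p = 0.385). The change was -0.029 without DMSO sample 2 and -0.28 without DMSO sample 1. POLE3, a small histone-fold subunit, had the strongest start, with 280, 333 and 329 in DMSO and 267, 275 and 266 in APH (log2 change -0.22 ± 0.11; limma, adjusted p = 0.163). Its APH samples were below all DMSO samples by a small margin, and its peak also lay within 1 kb of the start of C9orf43.

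The lower start values stood beside a shift of gene starts in general. The median log2 change was -0.27 over all gene starts, of which 10197 were below 0, and -0.38 over the 10 genes, with a range from -0.59 to -0.16. After every sample had been centred at the median of its own gene starts, the median change of the 10 genes was -0.11, and 6 of them were below 0. POLD3 was then the one gene whose APH samples all lay below the DMSO samples, where 6.16% of all gene starts did so. Its centred change was -0.32 and that of POLD1 was -0.30, while POLA1, PRIM2, POLE2 and POLE3 had centred changes of 0.02 to 0.11. How much of the shift came from the libraries (depth, or the share of reads in peaks) and how much from the cells cannot be told apart in these files.

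**Figure D3:**
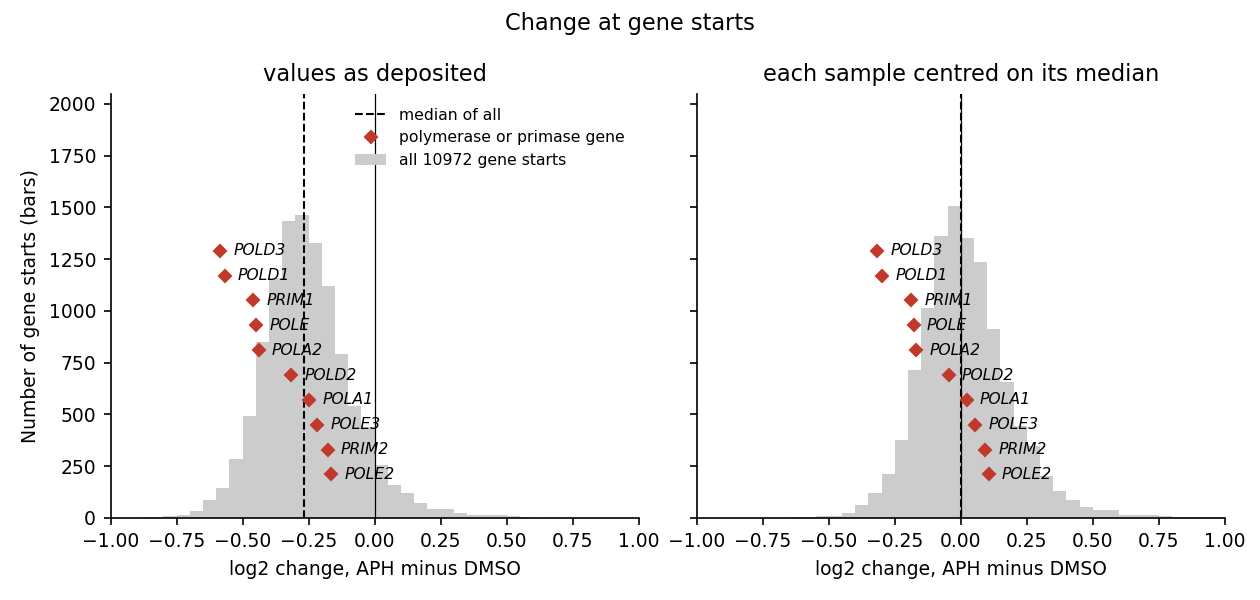
Histogram of the log2 change in start value (APH minus DMSO, limma) of all 10972 gene starts, with values as deposited on the left and each sample centred on its median on the right. Diamonds mark the 10 genes at their own change, with a height that only separates the names, and changes beyond 1 in either direction are counted in the end bins. The dashed median lies at -0.27 before centring and near 0 after it, with POLD3 and POLD1 on the left in both panels.

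The length covered by the start peaks overlapped between the groups in 9 genes. The exception was PRIM1, with 748, 965 and 969 bp in DMSO and 1026, 979 and 1079 bp in APH, where the second peak was missing in the first DMSO sample. With the value multiplied by the length, a measure of the whole signal under the peaks, 5 genes (POLA1, POLA2, POLD1, POLD2 and POLE3) were lower in all APH samples, as were 47.8% of all gene starts. In limma on this measure POLD1 (adjusted p = 0.0221), POLD2 (adjusted p = 0.0394) and POLE3 (adjusted p = 0.0489) passed the threshold as lower in APH, which was 3 of 10, where 27.1% of all gene starts passed.

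The median change of the body regions was closer to 0 than that of the start regions, and the difference between both classes was not tested. Among the 50150 regions of the genome with a peak in all samples, 14.4% had APH samples below all DMSO samples and 4.21% had them above, and the median log2 change was -0.06. Of the 10 start regions of the genes with a peak in all samples, 8 were lower without overlap, and their median change was -0.37. The closest background for these is that of all gene starts, of which 42% were lower without overlap, with a median change of -0.27. Of the 9 body regions, 1 was lower and 1 was higher without overlap, 6 had a change below 0 and 3 above 0, and the median was -0.08. No region of the 10 genes or of the genome passed the adjusted threshold in limma, and the smallest adjusted p among the regions of the genes was 0.290. At an unadjusted p under 0.05 there were 8 regions of the genes, 6 of them start regions, and 5062 lower and 1235 higher regions in the genome.

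**Figure D4:**
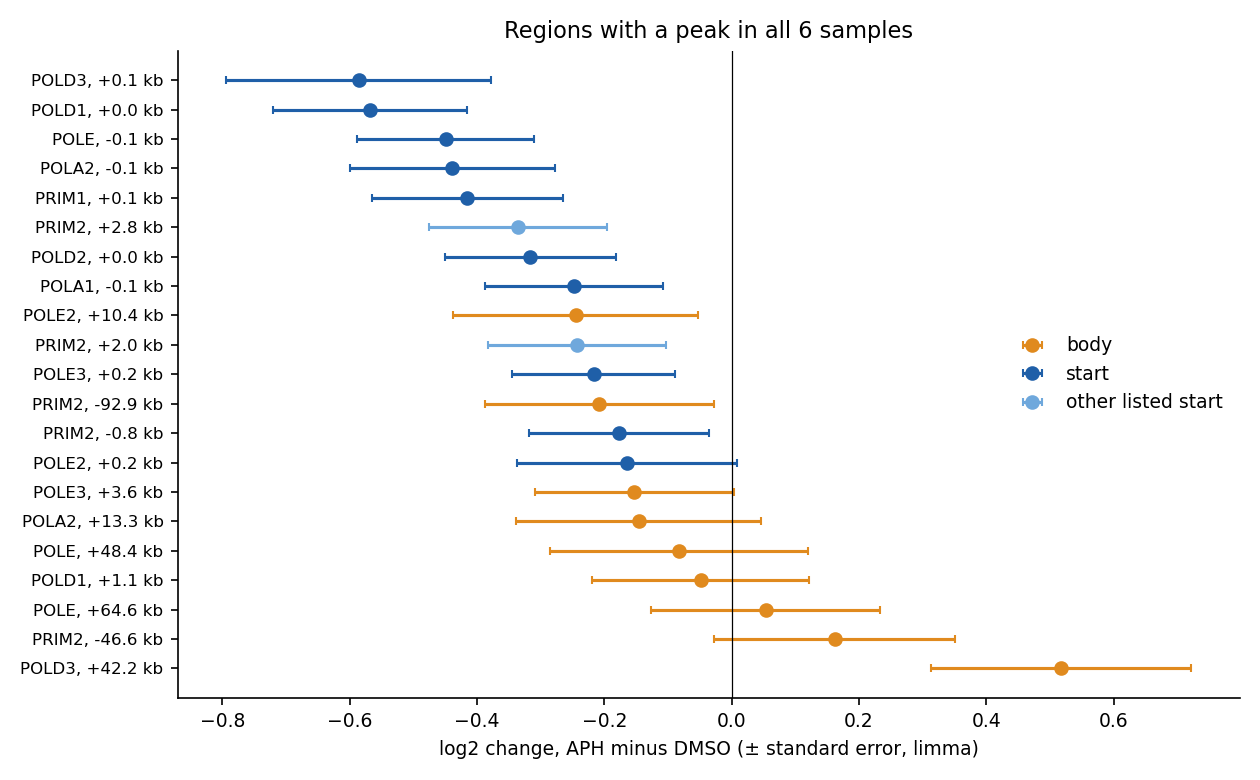
Log2 change in value (APH minus DMSO, with its standard error in limma) of the 21 regions of the 10 genes with a peak in all 6 samples, named by gene and distance from the gene start. Start regions (dark blue) lie between -0.59 and -0.16, and body regions (orange) between -0.25 and 0.52, the highest being that of POLD3.

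The body region that was higher in APH lay in POLD3, 42.2 kb from its start, at chr11:74634624-74634974 (GRCh38). Its values were 23.7, 22.6 and 21.3 in DMSO and 30.1, 42.5 and 27.2 in APH, so every APH sample was above every DMSO sample at a signal near the bottom of the range (the 4.16 percentile of shared regions). The log2 change was 0.52 ± 0.20 (limma, adjusted p = 0.327), and 0.33 without APH sample 2, which held the highest value. POLD3 had a lower start and a higher body region in the same samples, and the ratio of its start value to its body value was 2.60, 4.45 and 3.53 in DMSO and 1.58, 1.24 and 2.11 in APH. A common scaling of the values of a sample cancels in this ratio, but the body peaks that were called can still differ between samples. In POLD3 a second, weak body peak was called only in DMSO sample 2 and APH sample 3. The direction of the ratio in POLD3 follows from the start and body values already given and adds no support to them. The ratio could be formed in every sample for 7 of the polymerase and primase genes. Among these it was lower in APH without overlap in 1, which was POLD3, and higher without overlap in 0. In the genome, the ratio was lower in all APH samples in 14.3% of 6086 genes.

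The body region that was lower without overlap lay in POLE2, 10.4 kb from its start and over the pseudogene STK16P1. Its values were 31.4, 36.5 and 30.2 in DMSO and 26.7, 26.2 and 29.4 in APH (log2 change -0.25 ± 0.19; limma, adjusted p = 0.637). The region of POLE3 3.65 kb from its start, just past the end of the gene, was the strongest body region in DMSO by its mean, with 138, 172 and 124 in DMSO and 133, 142 and 113 in APH. The region of PRIM2 at -46.6 kb from its first listed start was the strongest in APH by its mean, and its values, 105, 165 and 113 in DMSO and 144, 172 and 111 in APH, overlapped between the groups as well.

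The number of body peaks per gene was small. PRIM1 and POLD2 had none in any sample, and POLA2 and POLE3 had 1 in every sample. The long POLA1 gene, of 303 kb, had 0, 3 and 2 in DMSO and 2, 2 and 0 in APH, all with values of 17.7 to 27.0, and PRIM2 had 6, 7 and 6 in DMSO and 7, 9 and 4 in APH. POLD1 had 1, 3 and 1 in DMSO and 2, 3 and 2 in APH, POLD3 had 1, 2 and 1 in DMSO and 1, 1 and 2 in APH, and POLE2 had 1, 3 and 2 in DMSO and 3, 3 and 2 in APH. In these genes the groups overlapped.

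POLE was the one gene with more body peaks in every APH sample, with 1, 1 and 1 in DMSO and 4, 2 and 2 in APH (two-sided exact permutation test, p = 0.1, the smallest possible). Among the 6015 genes with a mean of at least 2 body peaks, which did not include POLE, the number was higher without overlap in 5.07%. The peaks found only in APH, in regions at 1.68, 29.9 and 35.7 kb from the start, had values of 20.4 to 50.3, and only the region at 29.9 kb held a peak in 2 samples. One of the 4 peaks of the first APH sample lay at the end of the gene in a region with a peak in all 6 samples, where the midpoints of the other samples fell just outside the limit of 1 kb; its values were 65.3, 87.8 and 86.4 in DMSO and 81.3, 88.5 and 77.1 in APH. Of the 10 genes, 3 entered the limma fit of body peak numbers, in which 0.848% of genes passed the threshold. The adjusted p was 1 for PRIM2, 0.725 for POLD1 and 0.725 for POLE2.

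Other genes of the replication fork were taken from a list of 31. It included the remaining polymerase subunits, the sliding clamp and its loader, the replicative helicase, single-strand binding proteins and further fork factors. A start value in all samples was present for 30, the exception being RPA3. Of these, 29 had a log2 change below 0 and 1 above it, 22 were lower in all APH samples, where 42% of all gene starts were, and the median change was -0.36, against -0.27 for all gene starts. The adjusted threshold was passed by 2 of the 30, both lower in APH, where 2.33% of all gene starts passed. These were GINS4, a subunit of the GINS complex of the helicase, with 446, 406 and 440 in DMSO and 262, 331 and 262 in APH (log2 change -0.60 ± 0.13; limma, adjusted p = 0.0493), and MCM4, a subunit of the MCM helicase, with 252, 249 and 273 in DMSO and 174, 181 and 200 in APH (log2 change -0.48 ± 0.11; limma, adjusted p = 0.0493). Without any one of the samples other than APH sample 3, at most 1 gene start of the genome passed, so at least one of these calls was lost each time. Both calls were also lost without the intensity trend and with values taken relative to all peaks, centred or quantile normalized, under which no gene start passed as lower. CDC45, the helicase cofactor, came next in order of p, with 204, 215 and 206 in DMSO and 144, 170 and 149 in APH (log2 change -0.43 ± 0.11; limma, adjusted p = 0.0529). For the genes of this list it was not examined whether a start peak also lay within 1 kb of the start of another gene. After centring, 4 of the 30 were lower in all APH samples and 1 was higher, and the shares among all gene starts were 6.16% and 8.3%.

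The smallest subunits of polymerases δ and ε belong to this list. POLD4 had start values of 198, 206 and 194 in DMSO and 177, 181 and 195 in APH, and POLE4 had 122, 107 and 148 in DMSO and 89.5, 73.7 and 130 in APH. Both overlapped, and the log2 changes were -0.11 ± 0.10 and -0.39 ± 0.20 (limma, adjusted p = 0.377 and 0.154). PCNA, the clamp that holds polymerase δ on DNA, had 344, 474 and 452 in DMSO and 330, 365 and 375 in APH, with an overlap of the groups and a log2 change of -0.23 ± 0.15 (limma, adjusted p = 0.224). MCM3, another helicase subunit, was the one gene with a change above 0, at 0.06 ± 0.19 (limma, adjusted p = 0.819), with 314, 498 and 318 in DMSO and 375, 450 and 331 in APH.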

How the data were processed

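ATAC-seq peak lists of 6 RKO samples (3 DMSO, 3 APH) were analysed. The study states that the ATAC-seq was done in independent experiments, and the labels do not say which DMSO and APH samples belong to the same one. The authors aligned reads with BWA (v0.7.12, per the submitters' processing notes), removed duplicates and called peaks per sample with MACS2 (v2.1.0, hg38). The deposited value of a peak is a signal: the mean coverage over the peak in a map with bins of 32 nt, for which each alignment was lengthened to 200 bp. It was not scaled to library size, and the depth is unknown, so a difference in depth moves every value of a sample.

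Gene records and promoter sequences came from RefSeq (GRCh38.p14), and strand, where the promoter table held no start, from GENCODE by symbol. The gene start was the most upstream start listed, or the end of the gene record for POLD3. The genome sequence at hand was of another build and was not used. Peaks sharing 1 bp or more across samples were joined into regions, with values averaged by length.

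Differences were tested on log2(value + 1), or log2(number + 1) for body peaks, with limma (v3.58.1, R v4.3.3), with an intensity trend and Benjamini-Hochberg adjustment over all features (threshold 0.05). Single genes were compared by a two-sided exact permutation test (scipy v1.17.1). In simulated data with 50 changed gene starts per size among 10972, the test recovered 72% at a log2 change of 1 and 30% at one of 0.5. The shares were 38% and 0% for shared regions, and 38% and 26% for body peak numbers. The simulated samples varied independently and had no general shift, unlike the data here. Named were the 10 genes, and from the replication fork list POLD4, POLE4, PCNA and the 3 genes with the lowest p in each direction, of which 1 was higher. The genes, lists and motifs were chosen with earlier results of these data known.

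Alternatives were other scalings, pseudocounts, peak thresholds, windows and regions, an equal number of peaks, peak width as a covariate, a replicate block and leaving out each sample. The use of all listed starts, of the outermost end of the gene record and of value times length were added after the data were seen.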

Additional observations from a re-analysis of the deposited data

How the results depend on the processing

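The lower start value in APH, as a count of the 10 genes with all APH samples below all DMSO samples, was 8 with values as deposited. It was 2 with values relative to the mean over all peaks, 1 with each sample centred on its median, 2 with quantile normalization and 5 with value times length, and 8 or 9 with other peak thresholds, windows, gene sets and starts. Leaving out one sample (8 to 10) cannot lower this count, and pseudocount, trend, block and covariate leave it as it is by construction. The log2 change turned above 0 in 4 genes under rescaling: POLA1 (0.023 centred, 0.018 quantile), PRIM2 (0.029 relative to all peaks, 0.093 centred, 0.097 quantile), POLE2 (0.040, 0.11 and 0.095) and POLE3 (0.054 centred, 0.062 quantile). The change in the other 6 genes stayed below 0 under every alternative run.

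Of all gene starts, 256 were lower in APH and 0 higher at the adjusted threshold. The number lower was 0 under each of the 3 rescalings, without the intensity trend, with a window of 500 bp, with the highest start peak and with all genes of known strand. It was 722 with a window of 2 kb (7 higher), 437 with all listed starts (1 higher), 2971 with value times length (10 higher) and 3500 with median peak width as a covariate (11 higher), which called 2, 1, 3 and 5 of the 10 genes. Leaving out one sample gave 0 to 2012 lower and 0 to 19 higher, with both upper values without the third APH sample. Shared regions, with 0 calls either way, gave 1 lower after centring, 0 to 3 without one sample, and 5330 lower and 49 higher with the width covariate.

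The replicate numbers are shared between the groups, but nothing in the labels ties equal numbers to one experiment. Deviations of equally numbered gene starts correlated at -0.10, 0.59 and 0.60. The values for numbers 2 and 3 were above every correlation between unequal numbers, of which the highest was 0.32. Samples of number 1 did not correlate best with each other. These values do not settle the pairing, and the samples were not treated as paired in the main fit. With the number as a replicate block, 5791 gene starts were lower and 64 higher (7 of the 10 genes lower), 5583 shared regions were lower and 1021 higher (the region over the downstream start of PRIM2 among the lower ones, limma adjusted p = 0.0303), and 26 and 3 body peak numbers were higher and lower.

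Body peak numbers, with 44 genes higher and 7 lower, gave 77 to 152 higher and 12 to 34 lower without one sample, 1 and 0 relative to all peaks, 78 and 15 at a mean of at least 1 peak, 0 and 0 at a mean of at least 5, and 29 and 20 with an equal number of peaks. The log2 change in body peak number turned below 0 for PRIM2 with the width covariate (-0.25), relative to all peaks (-0.15), with an equal number of peaks (-0.16) and without one of 4 samples (range over all left-out samples -0.21 to 0.29), and with the width covariate for POLD1 (-0.11) and POLE2 (-0.11).

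No body region of the genes was called, and the sign of 7 turned. Relative to all peaks it turned in POLA2 (0.058), POLD1 (0.16), POLE at 48.4 kb (0.12) and POLE3 (0.053), and with quantile normalization in POLD1 (0.030) and POLE3 (0.0079). With the width covariate it turned in PRIM2 at -92.9 kb (0.00375) and -46.6 kb (-0.22) and in POLE at 64.6 kb (-0.12). Leaving out one sample turned it in POLA2 (range -0.26 to 0.016), POLD1 (-0.13 to 0.040), POLE at 48.4 kb (-0.20 to 0.081) and POLE at 64.6 kb (-0.083 to 0.13). The higher value of the POLD3 region kept its sign under the alternatives that gave it a value, but with peaks of at least 25 or an equal number of peaks it was no longer a region with a peak in all samples and had none. The cause of these differences was not tested. The unknown depth limits all levels. With 3 samples a group, a log2 change of 0.5 was often missed at gene starts and never recovered in shared regions in simulated data. Those data had independent samples and no general shift, so they do not give the power of the fit here.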
